A study of Mus musculus with 16 samples.

Results

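H3K27Ac was examined at 3 loci that hold 8 apolipoprotein genes, in liver tissue of 15 mice. The first locus was the cluster of Apoa1, Apoc3, Apoa4 and Apoa5 (chr9:46020001-46090000), the second the cluster of Apoe, Apoc1 and Apoc2 (chr7:20240001-20300000) and the third the gene Apob (chr12:7965001-8040000), all in mm9. Members were the H3K27Ac peaks that overlapped these windows by at least 1 bp, which were 135 of the 500869 peaks called in the 15 animals on chromosomes 1 to 19 and X, with 60 at the Apoa1 cluster, 46 at the Apoe cluster and 29 at Apob. After peaks of all animals that overlapped or adjoined were merged, the windows touched 6 of 56941 regions. No annotation of mm9 was used here, so a peak was assigned to its window and not to a single gene in it.

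Each group had 5 animals, and each library came from a different animal. WT livers (strain FVB.129P2, Mdr2-WT) and HCC nodules of Mdr2-KO mice (strain FVB.129P2-Abcb4tm1Bor/J) were taken at 14 to 19 months of age, and inflamed Mdr2-KO livers at 7 to 8 months, so that genotype, inflammation and age cannot be told apart between inflamed and WT livers, and tumor state and age cannot be told apart between nodules and inflamed livers. The strain of the WT mice is given as in the sample records, whereas the methods of the study name FVB/NJ. The knockout is present in all cells of the animal and removes Mdr2 (Abcb4), the transporter that moves phosphatidylcholine into bile. All 15 mice, WT included, had received clodronate liposomes, which deplete macrophages, at 50 ug per g of body weight for 48 h. Chromatin came from whole tissue, so that fewer cells with an acetylated locus and less acetylation per cell cannot be told apart. The state of Abcb4 and of liver markers outside the windows was not examined here.

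Apolipoproteins are the protein part of the particles that carry cholesterol and triglycerides in blood, and the liver is a main source of most of them. Apob is the structural protein of very-low-density and low-density lipoproteins, and Apoa1 that of high-density lipoproteins. Apoe is the ligand through which remnant particles are taken up by hepatocytes, and the small Apoc proteins and Apoa5 act on the hydrolysis of triglycerides by lipoprotein lipase. H3K27Ac is deposited on active promoters and enhancers, and loci of highly expressed, cell type-specific genes often carry it over long, nearly continuous stretches.

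Neighbouring protein-coding genes, in the order of the RefSeq annotation of GRCm38.p6, were Sik3, Apoa1, Apoc3, Apoa4, Apoa5 and Zpr1 at the first locus, Clptm1, Apoc2, Gm44805, Apoc4, Apoc1, Apoe and Tomm40 at the second, and Klhl29, Apob and Ldah at the third. RefSeq promoters of the same build, with 250 bases before and 50 after the transcription start, were given for 6 of the 8 genes in 9 entries. Those of Apoa1, Apoa5, Apoe and Apob are shown because their genes carry the main roles at the 3 loci. They are on the plus strand for Apoa1 (chr9:46228380-46228679), Apoa5 (chr9:46268358-46268657) and Apob (chr12:7977427-7977726) and on the minus strand for Apoe (chr7:19699139-19699438), in GRCm38.p6, and these positions cannot be compared with the mm9 positions of the peaks. Capitals mark matches, on either strand, to the TATA box core TATAAA, to CAAAGGTC, a direct repeat core read by nuclear receptors, to CAAAGTCC, an HNF4A core, or to TTGCNNAA, a C/EBP core. Apoa5 and Apoe each had further entries, and the first is printed.
Apoa1: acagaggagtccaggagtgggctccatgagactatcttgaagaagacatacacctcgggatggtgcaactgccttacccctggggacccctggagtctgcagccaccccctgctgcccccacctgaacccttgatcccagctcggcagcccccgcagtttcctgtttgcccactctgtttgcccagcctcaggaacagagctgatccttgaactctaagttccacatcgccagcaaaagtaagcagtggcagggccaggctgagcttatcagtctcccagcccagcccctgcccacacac
Apoa5: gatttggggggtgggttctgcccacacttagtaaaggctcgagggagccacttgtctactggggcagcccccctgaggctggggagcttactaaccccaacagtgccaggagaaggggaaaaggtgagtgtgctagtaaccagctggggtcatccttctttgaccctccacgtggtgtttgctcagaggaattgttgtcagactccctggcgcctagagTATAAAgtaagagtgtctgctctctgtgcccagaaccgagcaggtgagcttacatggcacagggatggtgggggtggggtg
Apoe: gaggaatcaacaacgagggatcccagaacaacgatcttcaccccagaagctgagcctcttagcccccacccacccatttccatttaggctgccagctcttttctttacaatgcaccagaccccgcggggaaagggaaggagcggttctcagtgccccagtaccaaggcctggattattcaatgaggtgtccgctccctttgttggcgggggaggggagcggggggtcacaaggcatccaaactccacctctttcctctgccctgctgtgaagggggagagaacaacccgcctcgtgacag
Apob: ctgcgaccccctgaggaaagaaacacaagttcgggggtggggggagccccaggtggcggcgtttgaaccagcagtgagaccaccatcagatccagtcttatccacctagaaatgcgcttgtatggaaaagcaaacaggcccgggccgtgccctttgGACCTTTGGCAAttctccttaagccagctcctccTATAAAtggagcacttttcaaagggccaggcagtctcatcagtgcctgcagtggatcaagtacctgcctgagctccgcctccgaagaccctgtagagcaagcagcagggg

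Positions were counted from the first transcribed base as 0. The Apob promoter held TATAAA from -60 to -55, a match to CAAAGGTC on the opposite strand from -94 to -87 and a match to TTGCNNAA on the opposite strand from -90 to -83, which shares bases with the former. In the Apoa5 promoter TATAAA lay from -31 to -26. The printed promoters of Apoa1 and Apoe had no match to these letters. Of the other Apoe entries, the second held TATAAA from -96 to -91 and, on the opposite strand, from -100 to -95, and the third CAAAGGTC on the opposite strand from 2 to 9. Among all 32851 RefSeq promoters in the table, 13.6% held TATAAA, 1.17% CAAAGGTC, 1.42% CAAAGTCC and 10.8% TTGCNNAA.

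Peaks per list ranged from 26375 to 30268 in WT livers, from 35901 to 40909 in inflamed livers and from 26683 to 42736 in nodules. The median peak width was 2999 ± 172 bp in inflamed livers, 3376 ± 356 bp in WT livers and 3213 ± 522 bp in nodules (mean ± SD of the animals' medians, n = 5 each), and the groups overlapped, with 2791 to 3197 bp in inflamed livers, 2890 to 3809 bp in WT livers and 2689 to 3972 bp in nodules. These widths were not tested. The lists give no reads per peak, so the depth of each library is unknown, and no interval for counting error could be given. WT animal 130748 and HCC animal 124711 stood apart from their groups. They had the least genome under peaks of their groups, 109 Mb and 92.5 Mb, and the largest shares of peaks at a score of 3100, which many peaks share, 23.5% and 24.5%, against 9.52% to 18.1% in the other animals. Both were kept, and values without them are given beside the results that they move. The study left out samples as outliers from its own principal component analysis without naming them in the paper's text, so whether these are the same animals is not known here.

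**Figure D1:**
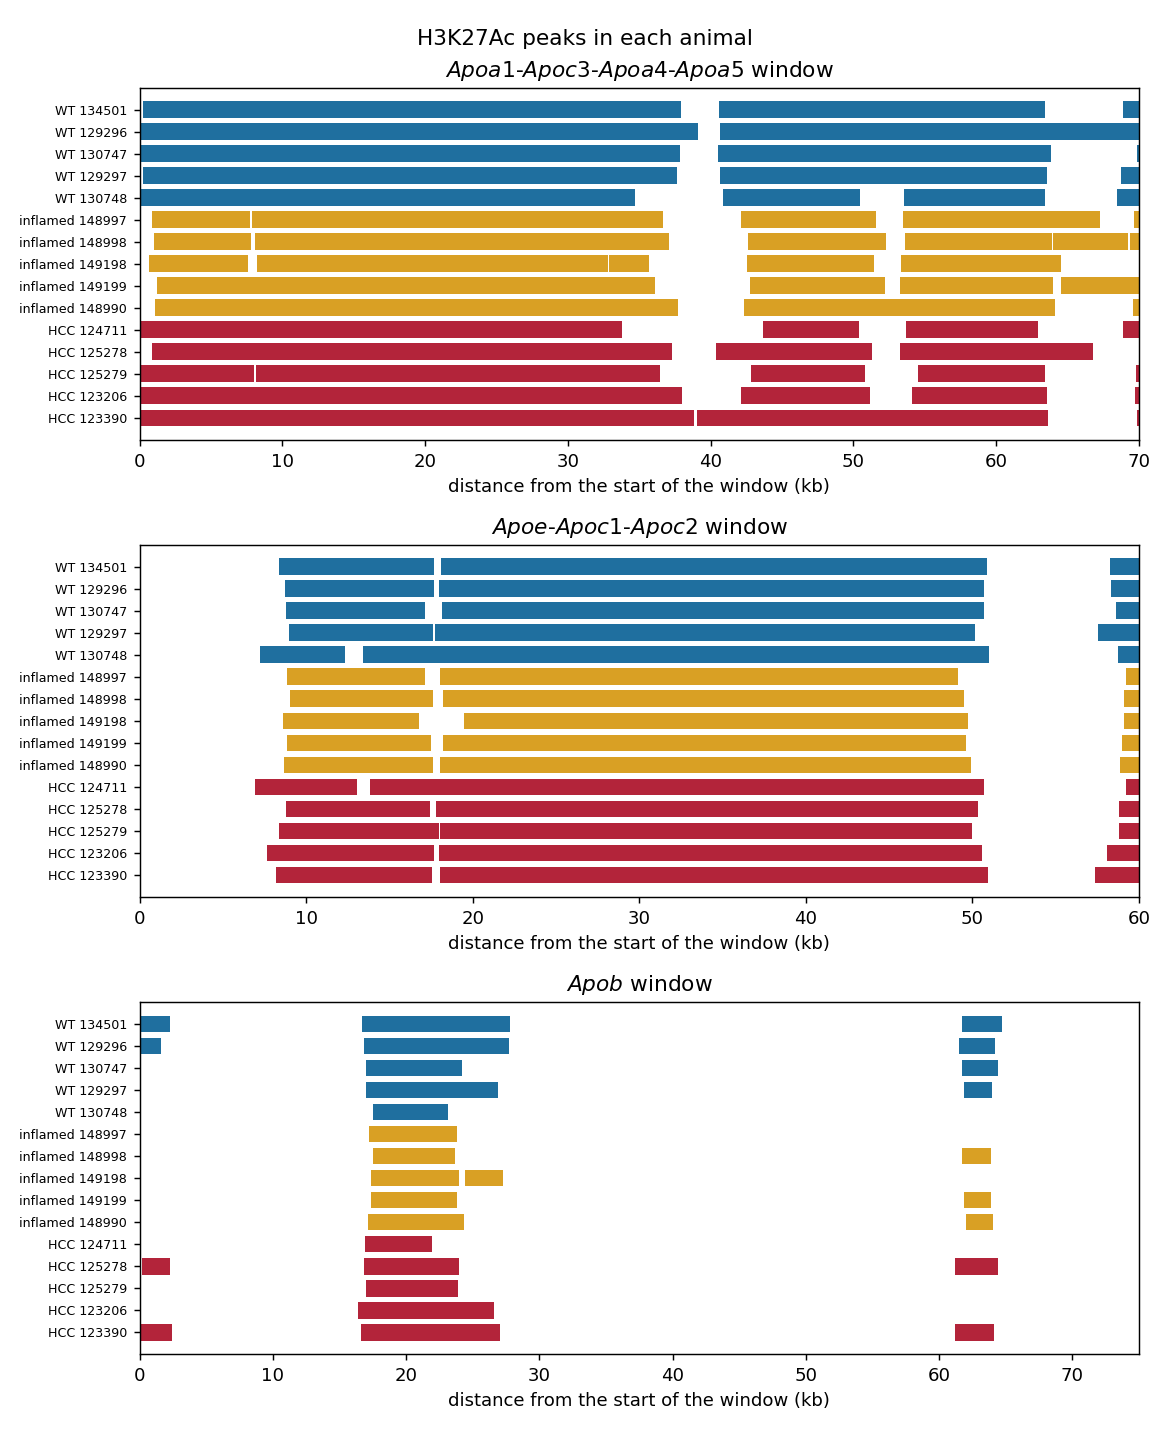
H3K27Ac peaks of each of the 15 animals in the 3 windows. The x axis gives the distance from the window's start in kb, each row is 1 animal named by group and animal number, and each bar is the part of a peak inside the window. Peaks fill most of the Apoa1 and Apoe clusters in every animal, and at Apob a central peak was present in all 15.

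The apolipoprotein clusters were among the most broadly acetylated parts of the liver genome in every group. Peaks covered 88.2% of the Apoa1 cluster window in WT livers, 84.2% in inflamed livers and 81.6% in nodules (means of 5). For the Apoe cluster the shares were 72.3%, 67.8% and 72.8%. Among 70 kb segments of the genome with a peak in the same animal, the Apoa1 cluster ranked at percentile 99.7 to 99.99 and the Apoe cluster at percentile 98.5 to 99.8 over the 15 animals. Apob stood lower, with 15.8% of its window under peaks in WT livers, 11.2% in inflamed livers and 13.5% in nodules, at percentiles from 45.5 to 77.6. The windows were placed around the genes, whereas the segments form a fixed grid that can cut a broad stretch, which can favour a high rank. Shares were compared although the Apoe cluster window is 60000 bp and the Apob window 75000 bp long.

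All 15 animals shared a large core at both clusters. At the Apoa1 cluster 47088 bp, or 67.3% of the window, were under a peak in each animal, and the longest unbroken stretch of this core was 24585 bp (chr9:46028259-46052843). The core at the Apoe cluster measured 36636 bp, or 61.1% of the window, with a longest stretch of 29612 bp (chr7:20259504-20289115). At Apob it was a single stretch of 4418 bp (chr12:7982556-7986973). Of the 1 kb bins with at least 500 bp under peaks in any animal, 47 of 70 at the Apoa1 cluster, 36 of 47 at the Apoe cluster and 4 of 18 at Apob were so covered in all 15 animals. The share over all such bins of the genome was 15.4%.

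Merged regions were also broad. A single region of 101623 bp spanned the whole Apoa1 cluster window and ran beyond both of its ends (chr9:45991196-46092818), which is wider than 99.99% of all regions. The Apoe cluster had a region of 44047 bp (chr7:20246924-20290970, wider than 99.7% of regions) and one of 5991 bp at its right end (chr7:20297386-20303376). These 3 regions and the central region at Apob (chr12:7981364-7992812, 11449 bp, wider than 91.5%) had a peak in all 15 animals, as had 21.3% of all regions. The other 2 Apob regions lay on either side of it and were seen in some animals. The left one (chr12:7964434-7967415) had a peak in 2 WT, 0 inflamed and 2 HCC animals, and the right one (chr12:8026160-8029702) in 4 WT, 3 inflamed and 2 HCC animals.

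None of the 6 regions was present in all 5 animals of a group and absent from all 5 of another, in any of the 3 contrasts. Over all regions 4.82% were gained and 0.399% lost by this rule in inflamed against WT livers, 0.105% and 1.28% in nodules against inflamed livers, and 0.22% and 0.146% in nodules against WT livers.

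The first question was how the inflamed livers compared with WT livers. At the Apoe cluster the covered length was 43801, 43343, 42261, 43500 and 43905 bp in the 5 WT livers. In inflamed livers it was 40219, 40762, 39278, 41037 and 41974 bp, and every value lay below every WT value. The length fell from 43362 ± 656 bp to 40654 ± 998 bp (mean ± SD, n = 5 each), a difference of -2708 bp (two-sided exact permutation test, p = 0.00794, which is the lowest value possible with 5 animals per group, and Benjamini-Hochberg adjusted p = 0.0371 over 17904 segments and windows). Calls at adjusted p under 0.05 with less length in inflamed livers made up 4.27% of these 17904, and those with more length 17.1%. Among the 290 segments with at least 50% under peaks on average, the groups did not overlap and inflamed livers were lower in 15.2% and higher in 6.21%. The median difference over those 290 was -1550 bp, which is the same direction as at the Apoe cluster. When animals were left out singly the difference stayed between -3038 and -2364 bp, and the call was lost without WT animal 134501, 129296 or 129297 or inflamed animal 148997 or 149198 (exact permutation tests, adjusted p = 0.0503 to 0.0741). It was also lost with the best 50% of each list (exact permutation test, adjusted p = 0.0508), with windows extended by 10 kb (0.0614) and per Mb of all bp under peaks (0.0729), where the groups overlapped with 293 to 401 bp per Mb in WT and 245.6 to 298 bp per Mb in inflamed livers. With the best 50% the difference and its unadjusted p were unchanged, and only the adjustment over the other segments differed.

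Part of the decrease at the Apoe cluster lay at the borders that face the gap between the main and the smaller region. Counted from the window's start, the main region ended at 50.2 to 50.97 kb in WT livers and at 49.1 to 49.9 kb in inflamed livers. The smaller region to its right began at 57.5 to 58.7 kb in WT livers and at 58.8 to 59.2 kb in inflamed livers, so that the gap between both regions was 7376 to 7896 bp wide in WT and 8923 to 10082 bp in inflamed livers. At these borders the groups did not overlap. At the outer ends they did. The main region began at 7.22 to 8.97 kb in WT and at 8.63 to 9.03 kb in inflamed livers. The smaller one ended at 62.2 to 63.4 kb in WT and at 62.5 to 62.8 kb in inflamed livers. All these borders were chosen after the values were seen and were not tested.

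Both regions of the Apoe cluster became shorter when measured on their own. The main region had 41658 ± 730 bp under peaks in WT livers and 39694 ± 896 bp in inflamed livers, and the smaller one 4383 ± 288 bp and 3598 ± 137 bp (mean ± SD, n = 5 each). In both, inflamed and WT animals did not overlap (two-sided exact permutation test, p = 0.00794, adjusted p = 0.0498 over 44697 regions), where 3.92% of all regions were called lower in inflamed livers and 12% higher. Both calls lie just under the threshold. For the main region the call was lost whichever of the 10 animals was left out (without WT animal 130748, -1723 bp, exact permutation test, adjusted p = 0.0596), and for the smaller one it was kept only without WT animal 134501 or 130748. The mean of the median peak widths was also lower in inflamed livers, although the groups overlapped, and its part in this result was not tested.

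**Figure D2:**
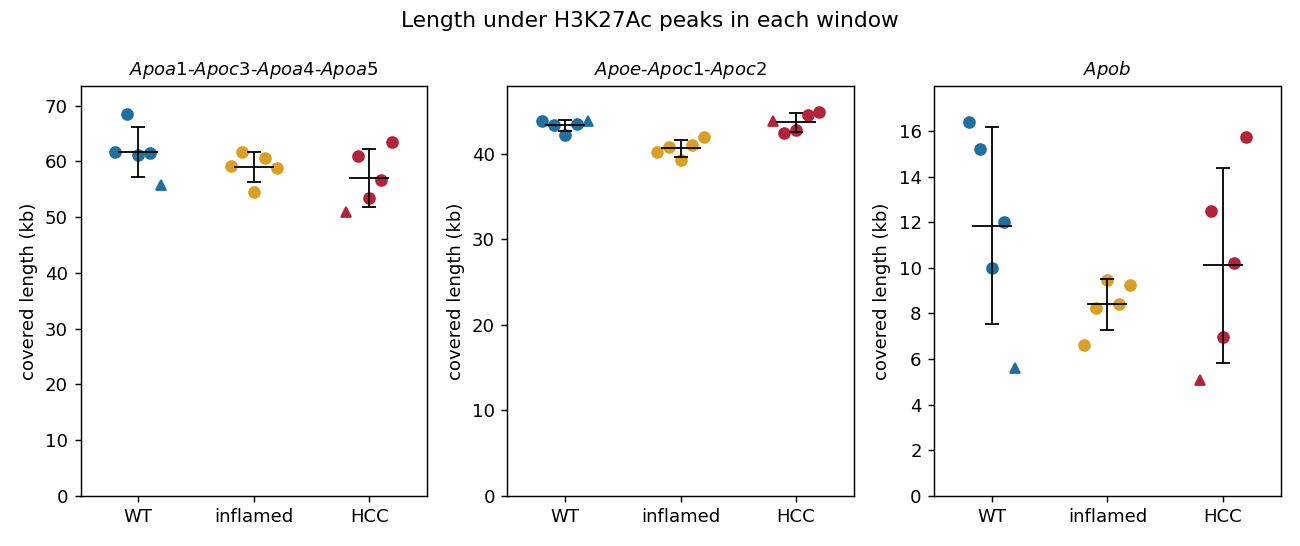
Covered length in kb (y axis, from 0) in each window by group. Each point is 1 animal, triangles are WT animal 130748 and HCC animal 124711, and the horizontal bar and whiskers are the mean and SD of 5 animals. At the Apoe cluster the 5 inflamed livers lie below all WT livers and all nodules, whereas groups overlap at the other loci.

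At the Apoa1 cluster the total covered length did not pass the test. It was 61701, 68456, 61234, 61567 and 55742 bp in WT livers and 59227, 61603, 54526, 60548 and 58831 bp in inflamed livers. The groups overlapped, with means of 61740 ± 4510.2 bp and 58947 ± 2704 bp (SD, n = 5 each; difference -2793 bp, exact permutation test, two-sided, p = 0.278, adjusted p = 0.458). The number of its peaks did not pass either. WT livers had 3 peaks each except animal 130748 with 5, and inflamed livers had 5, 6, 5, 4 and 4 (means 3.4 and 4.8, exact permutation test, two-sided, p = 0.0714, adjusted p = 0.245). By number of peaks 0% of segments and windows were called in this exact permutation test in any contrast, where the lowest adjusted p was 0.0621, although 5106 of 17904 had an unadjusted p under 0.05 between inflamed and WT livers.

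The widest single peak at the Apoa1 cluster was narrower in inflamed livers. It measured 37718, 57501, 38062, 37419 and 53618 bp in WT livers. In inflamed livers it measured 28793, 29049, 24585, 34908 and 36658 bp, all below the lowest WT value. Whole peaks were measured, any part outside the window included. Those of WT animals 129296 and 130748 began at -18.4 and -18.9 kb from the window's start and ended at 39.1 and 34.7 kb. Inside the window the peak of WT animal 130748 was thus shorter than those of inflamed animals 149199 and 148990, and the groups overlapped. Widths inside the window were not tested. Mean widths of whole peaks were 44864 ± 9863 bp and 30799 ± 4922 bp (SD, n = 5 each), a difference of -14065 bp (exact permutation test, two-sided, p = 0.00794, adjusted p = 0.0462). The Apoe cluster showed the same direction. Its widest peak was 32790, 32763, 32545, 32412 and 37534 bp in WT livers and 31102, 31284, 30219, 31352 and 31892 bp in inflamed livers (difference -2439 bp, exact permutation test, two-sided, p = 0.00794, adjusted p = 0.0462). By this measure 4.9% of segments and windows were called lower in inflamed livers and 12.3% higher. Among the 10 sets that left out 1 animal, both calls were kept only without WT animal 134501. They were also lost with equal lists of the best 26375 peaks and with the best 50% of each list (exact permutation tests, adjusted p = 0.0534 and 0.0554 at both clusters). In these list settings the differences and their unadjusted p were unchanged, and only the adjustment over the other segments differed.

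WT animal 130748 had the widest peak of its group at the Apoe cluster, and the second widest at the Apoa1 cluster. Without it the inflamed livers were still all below the remaining WT livers, by -11876 bp at the Apoa1 cluster and -1458 bp at the Apoe cluster, but neither passed the threshold (exact permutation test, adjusted p = 0.0531 for both). The covered length of the Apoe cluster kept its call without this animal (-2572 bp, exact permutation test, adjusted p = 0.0476).

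**Figure D3:**
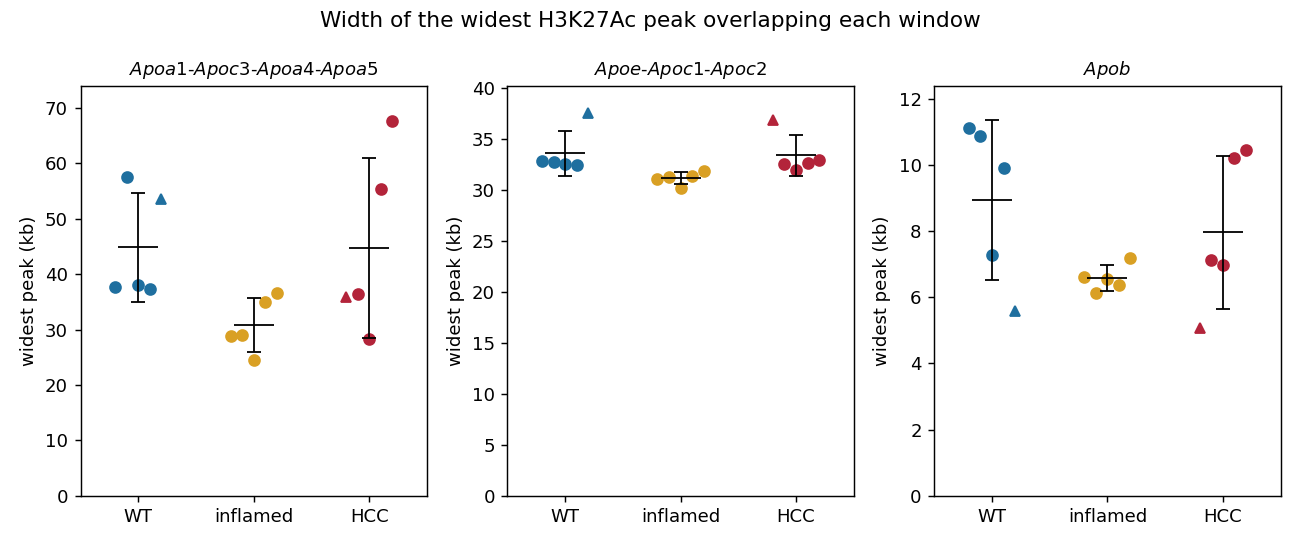
Width in kb (y axis, from 0) of the widest peak that overlaps each window, any part outside the window included, by group. Points are single animals, triangles are WT animal 130748 and HCC animal 124711, and the horizontal bar and whiskers are the mean and SD of 5 animals. All 5 inflamed livers lie below all 5 WT livers at both clusters, and at Apob 3 WT livers and 2 nodules lie well above the inflamed livers.

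Where peaks were split at the Apoa1 cluster could be followed along the window. A gap in the middle of the cluster, taken as the first that began past 33 kb, separated a left peak from the peaks to its right in all 15 animals. It closed on its right side at 40.5 to 40.9 kb from the window's start in WT livers and at 42.2 to 42.7 kb in inflamed livers. In nodules this border lay at 39.1 to 43.7 kb, which spans both groups. Its width was 2611, 1527, 2690, 2977 and 6145 bp in WT livers and 5470, 5528, 6845, 6635 and 4621 bp in inflamed livers. The high WT value was that of animal 130748, and the other 4 WT livers were below all inflamed livers. In nodules the width ranged from 247 to 9860 bp. A second split near 8 kb was seen in 3 inflamed livers and 1 nodule and in no WT liver. It was 127, 276 and 628 bp wide in the inflamed livers and 107 bp in the nodule, and the widest peak of these animals began at its right side. With peaks under 1 kb apart joined, inflamed and WT livers differed by 0.2 peaks at this cluster, against 1.4 without joining. Widest peaks were not measured with joined peaks. Both splits were chosen after the values were seen and were not tested.

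By bins of 1 kb, 2 bins of the Apoa1 cluster were covered in all WT livers and in no inflamed liver. They were the first of the window (chr9:46020001-46021000) and one at the right side of the middle gap (chr9:46061001-46062000). No bin of the 3 windows was covered in all inflamed livers and in no WT liver. Of all 237329 bins with a peak in these 10 animals, 0.945% were lost and 4.37% gained by this rule. No bin of the windows differed in this way between nodules and inflamed livers, where 0.208% of bins were gained and 0.983% lost, or between nodules and WT livers, where 0.216% were gained and 0.196% lost.

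**Figure D4:**
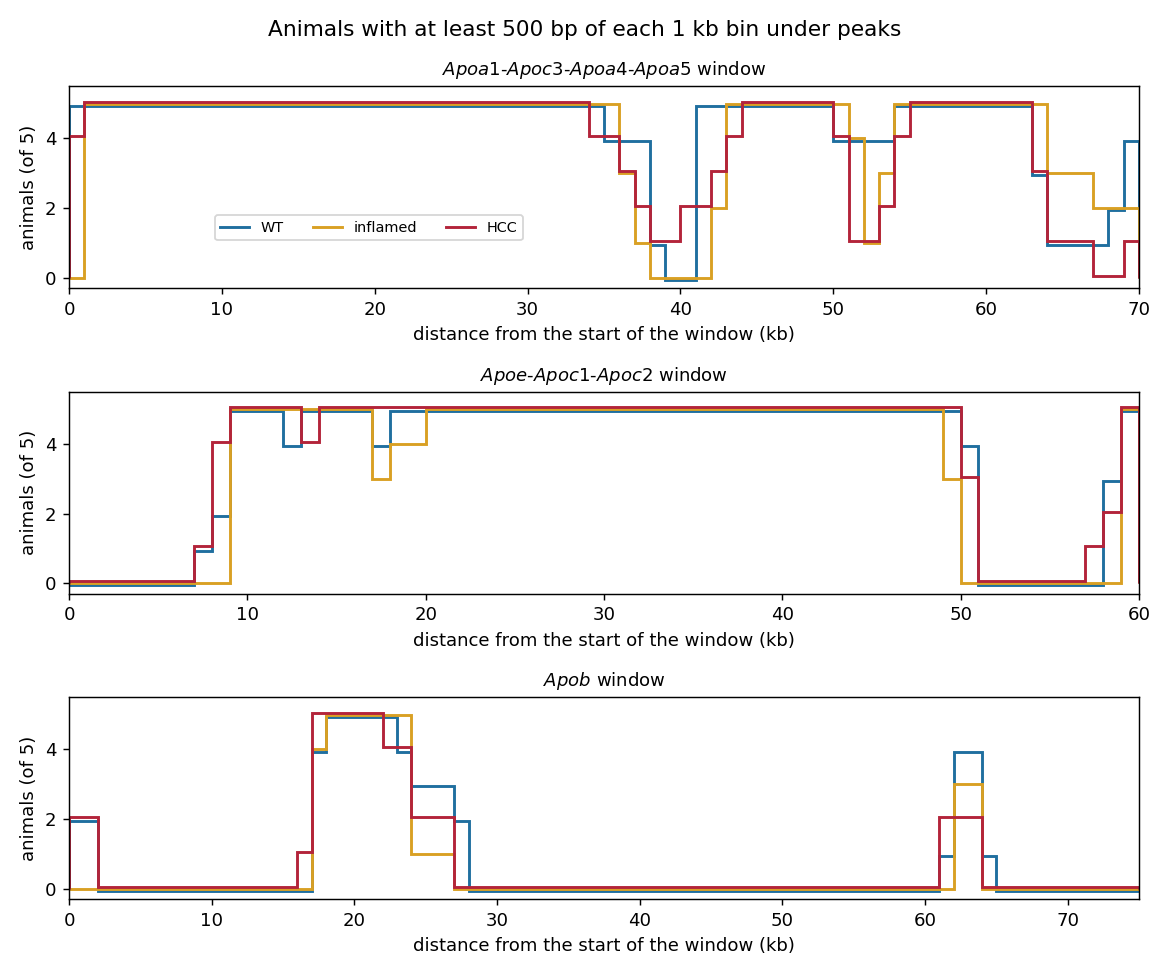
Number of animals, of 5 in each group, with at least 500 bp of a 1 kb bin under peaks (y axis), by distance from the window's start in kb (x axis). Lines are set apart slightly for visibility. The lines of the 3 groups run together over the cores and part at the borders, such as the right end of the Apoe cluster and the middle gap of the Apoa1 cluster.

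At Apob the groups overlapped. The covered length was 16389, 15232, 9985, 12020 and 5599 bp in WT livers and 6609, 8254, 9462, 8397 and 9256 bp in inflamed livers. Of the WT livers 4 were above all inflamed livers, and animal 130748 was below all of them. The means were 11845 ± 4319 bp and 8396 ± 1128 bp (SD, n = 5 each; difference -3449 bp, exact permutation test, two-sided, p = 0.143, adjusted p = 0.292). Without WT animal 130748 the difference was -5011 bp and passed the threshold (exact permutation test, adjusted p = 0.0320). With the window extended by 10 kb on each side and all animals kept, the difference was -624 bp (exact permutation test, p = 0.841). The extension takes in a region to the right of the window (chr12:8047852-8051783) that had a peak in 5 inflamed, 0 WT and 0 HCC animals. Over all regions 4.82% were gained in all inflamed and no WT livers. It also takes in another region to the right (chr12:8042839-8047099), with a peak in 5 inflamed, 2 WT and 2 HCC animals. Part of a region to the left (chr12:7952926-7959879), with a peak in 5 inflamed, 4 WT and 4 HCC animals, is included too. These regions lie outside the window, were noticed after the values were seen and were not tested. The Apob difference thus depended on a single WT library and on the extent of the window.

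The central Apob peak was the widest of the window in every animal. It spanned 11120, 10867, 7268, 9898 and 5599 bp in WT livers and 6609, 6122, 6557, 6384 and 7198 bp in inflamed livers (difference -2376 bp, exact permutation test, two-sided, p = 0.103, adjusted p = 0.253). Without animal 130748 the difference was -3214 bp (exact permutation test, adjusted p = 0.0350). The left border of the central region was at 16.7 to 17.6 kb from the window's start in WT and at 17.1 to 17.5 kb in inflamed livers. On the right it ended at 23.2 to 27.8 kb in WT livers and at 23.7 to 27.3 kb in inflamed livers. The 27.3 kb end belonged to inflamed animal 149198, which had a second peak of 2905 bp to the right of the central one, and the other 4 inflamed livers ended by 24.3 kb. With this second peak counted, the central region had 8950 ± 2416 bp under peaks in WT and 7155 ± 1349 bp in inflamed livers (SD, n = 5 each; exact permutation test, two-sided, p = 0.183, adjusted p = 0.384).

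The central Apob peak carried a score of 3100 in all WT and inflamed livers and in 3 of 5 nodules. Scores of the outer Apob peaks varied. The left ones had a higher score than 2.04% to 60.2% of the peaks in their list, and the right ones than 0.367% to 40.3%. At the clusters each of the 15 animals had at least 1 peak at that score.

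The next question was how the HCC nodules compared with inflamed livers. At the Apoe cluster nodules had 43831, 42402, 42779, 44522 and 44923 bp under peaks, all above the highest inflamed value of 41974 bp. Their mean was 43691 ± 1086 bp (SD, n = 5), which is 3037 bp more than in inflamed livers (exact permutation test, two-sided, p = 0.00794), but no call was made (adjusted p = 0.121). In this contrast 0% of the 19236 segments and windows were called in either direction, and 0.121 was the lowest adjusted p reached by this exact permutation test, although 3189 had an unadjusted p under 0.05. Groups did not overlap and nodules were higher in 1.45% of segments and windows and lower in 5.12%. Among the 290 broadly covered segments these shares were 6.55% and 2.07%. The median difference over those 290 was 2306 bp, which is the same direction as at the Apoe cluster. The main region ended at 50 to 50.9 kb from the window's start in nodules, beyond its end in all inflamed livers. The separation was lost per Mb of all bp under peaks, with 244 to 474 bp per Mb in nodules and 245.6 to 298 bp per Mb in inflamed livers (exact permutation test, p = 0.437). The lowest of these nodules was animal 125279 and the highest animal 124711.

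Other measures of the Apoe cluster showed the same order. The widest peak was 36906, 32520, 31979, 32601 and 32901 bp in nodules, each above the highest inflamed value of 31892 bp (difference 2212 bp, exact permutation test, two-sided, p = 0.00794, adjusted p = 0.139). Without HCC animal 124711 it was 1330 bp (exact permutation test, adjusted p = 0.135). By this measure 1.34% of segments and windows were higher in nodules without overlap and 4.36% lower. The main region had 42145 ± 763 bp under peaks and the smaller one 4379 ± 608 bp (SD, n = 5 each), and in both all nodules were above all inflamed livers (exact permutation test, p = 0.00794, adjusted p = 0.170 for both). Among all regions 0.898% were higher in nodules without overlap and 3.76% lower. None of these differences passed after adjustment. By widest peak, 0% of the 19236 segments and windows were called in this contrast. The lowest adjusted p reached by that exact permutation test was 0.139. By covered length of regions, 0% of 54675 were called in either direction.

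Nodules varied more than inflamed livers at the other loci. At the Apoa1 cluster their covered length was 50910, 60943, 53384, 56750 and 63543 bp, with the lowest in animal 124711, and the mean of 57106 ± 5209 bp did not differ from inflamed livers beyond the spread (difference -1841 bp, exact permutation test, two-sided, p = 0.5, adjusted p = 0.870). The difference was -292 bp without HCC animal 124711, -910.5 bp without 125279, -2800 bp without 125278 and -3450 bp without 123390, and no test passed. The widest Apoa1 cluster peak ranged from 28362 to 67618 bp in nodules (difference 13913 bp, exact permutation test, p = 0.103, adjusted p = 0.503), and without HCC animal 123390 the difference was 8186 bp. The peak of that animal began at -28.8 kb from the window's start, and its part outside the window was counted. At Apob the covered length was 5085, 12482, 6964, 10224 and 15763 bp. Nodules lay both below and above all inflamed livers, with a mean of 10104 ± 4264 bp (difference 1708 bp, exact permutation test, two-sided, p = 0.421, adjusted p = 0.816). It was 293 bp without HCC animal 123390, 1113 bp without 125278 and 2963 bp without 124711, and none passed. The central Apob peak was 5085, 7113, 6964, 10224 and 10456 bp wide in nodules (difference 1394 bp, exact permutation test, p = 0.286, adjusted p = 0.763). That difference was 2115 bp without HCC animal 124711 (exact permutation test, adjusted p = 0.164), 772.5 bp without 123390 and 830.5 bp without 123206.

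Nodules and WT livers, which share the age range, did not pass the test at any locus. In this contrast 0% of 18678 segments and windows were called in either direction by covered length, and 2018 had an unadjusted p under 0.05 in the exact permutation test. The covered length differed by 329 bp at the Apoe cluster (exact permutation test, two-sided, p = 0.540, adjusted p = 0.936), by -4634 bp at the Apoa1 cluster (p = 0.183, adjusted p = 0.679) and by -1741 bp at Apob (p = 0.563, adjusted p = 0.955). Widest peaks differed by -152 bp at the Apoa1 cluster, -227 bp at the Apoe cluster and -982 bp at Apob (exact permutation tests, adjusted p = 1, 1 and 0.960). Ordered by mean covered length, the Apoe cluster ran from nodules over WT to inflamed livers, and of these neighbours nodules and WT livers did not differ beyond their spread. At the Apoa1 cluster and at Apob the order was WT livers first, with no neighbour in the order differing beyond the spread.

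WT animal 130748 and HCC animal 124711 also resembled each other in the shape of their peaks. At the Apoe cluster a gap split the main region and began at 16.8 to 17.98 kb from the window's start in the other 13 animals, but at 12.3 kb in WT animal 130748 and at 13.1 kb in HCC animal 124711. Both lacked the left and the right Apob region, as did inflamed animals 148997 and 149198 and HCC animals 125279 and 123206. Only WT animal 130748 and HCC animal 124711 lacked any peak in the 10 kb on either side of the Apob window, where the other 13 animals had a peak to the left. Counts of peaks passed the test between no groups at any of the 3 loci. For the Apoe cluster all WT livers and all nodules had 3 peaks, and inflamed livers had 3 except animal 148998 with 4. At Apob the numbers were 3, 3, 2, 2 and 1 in WT livers, 1, 2, 2, 2 and 2 in inflamed livers and 1, 3, 1, 1 and 3 in nodules.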

How the data were processed

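H3K27Ac ChIP-seq peaks of 5 WT livers, 5 inflamed Mdr2-KO livers and 5 HCC nodules were analysed, 1 animal per library. Per the submitters' processing notes, Bowtie 0.12.7, MACS 1.4 and mm9 were used. The authors called peaks in each animal and deposited their positions with a score of the peak caller on a scale not stated in the sources used here, used only to rank peaks within a list. Many peaks are tied at 3100. The IgG library from WT liver was not used here. Without read counts, depth is unknown, and depth can change how many peaks are called and how wide they are.

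The members, windows and measures were chosen with earlier results of these data known. For each window the bp under peaks, the number of overlapping peaks and the width of the widest peak were tested by exact permutation of the group labels (252 assignments, difference of means, two-sided), with Benjamini-Hochberg adjustment over all 70 kb segments with a peak in the animals compared plus the 3 windows, and calls at adjusted p under 0.05. In all 27 such tests were made. Merged regions and 1 kb bins (at least 500 bp under peaks) were counted, without a test, where 1 group had all 5 animals covered and another had 0. The same test on the bp under peaks of single merged regions, over all merged regions, was added after the data were seen, for the 3 regions with a peak in all 15 animals at loci with more than 1 region. Regions were named all, bins where they differed 5 against 0. Genes of like pattern and a planned list of other lipoprotein genes were not placed, since no mm9 annotation was used. The code of the test was checked on simulated data in which the planted groups did not overlap. That check does not tell how often smaller differences would be found. Alternatives were equal lists of the best 26375 peaks, the best 50% of each list, windows extended by 10 kb, bp per Mb under peaks, joined peaks, relaxed counts and leaving out animals. Python 3.11.15, NumPy 2.4.6 and matplotlib 3.10.9 were used.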

Additional observations from a re-analysis of the deposited data

Results flagged for a closer look

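In 5 of 36 groups of 5 animals examined, 1 animal lay far from the others by Dixon's criterion. Chance alone flags about 1 group in 20 of continuous values, and this rate does not apply to the 3 flagged peak counts, where any single count that differs from 4 equal ones is flagged. The widest peak at the Apoe cluster was 37534 bp in WT animal 130748, against 32412 to 32790 bp in the other WT livers, and 36906 bp in HCC animal 124711, against 31979 to 32901 bp in the other nodules. Both are the animals whose gap in the Apoe cluster began at 12.3 and 13.1 kb from the window's start. At the Apoa1 cluster WT animal 130748 had 5 peaks against 3 in each other WT liver. Inflamed animal 148998 had 4 peaks at the Apoe cluster against 3 in the others, with a gap of 2 bp between 2 of them. Inflamed animal 148997 had 1 peak at Apob against 2 in each other inflamed liver.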

How the results depend on the processing

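Of 72 results, 47 kept their direction and their side of the threshold, or their count within 1.5 times, under every alternative, and 25 did not under at least 1. The calls between inflamed and WT livers lay close to the threshold, and no such difference changed direction, except for numbers of peaks. For the covered length of the Apoe cluster the call was lost with the best 50% of each list (-2708 bp, exact permutation test, adjusted p = 0.0508), with windows extended by 10 kb (-2630 bp, 0.0614) and per Mb of all bp under peaks (-64.8 bp per Mb, 0.0729), and it ranged from -3038 to -2364 bp when an animal was left out, with the call lost without WT 134501, 129296 or 129297 or inflamed 148997 or 149198. For the widest peak the calls were lost with equal lists and with the best 50% (-14065 bp at the Apoa1 cluster and -2439 bp at the Apoe cluster, exact permutation tests, adjusted p = 0.0534 and 0.0554 at both) and without WT 130748 and HCC 124711 (-11876 and -1458 bp), and leaving out an animal gave -15926 to -10906 bp at the Apoa1 cluster and -2738 to -1458 bp at the Apoe cluster, with both calls kept only without WT 134501. For the main and the smaller Apoe region they were lost with equal lists and with the best 50% (-1964 and -785 bp, exact permutation tests, adjusted p = 0.0591 and 0.0608 for both), for the main one without both animals (-1723 bp), and ranged from -2243 to -1633 bp and from -893 to -716 bp when an animal was left out. Apob gained a call without both animals, in covered length (-5011 bp; -5011 to -2313 bp when 1 animal was left out) and in its widest peak (-3214 bp; -3214 to -1834 bp), whereas with windows extended by 10 kb its difference in covered length shrank to -624 bp (exact permutation test, p = 0.841). For the covered length of the Apoe cluster with the best 50%, and for the widest peaks with both list settings, the unadjusted p was that of the main test. There only the adjustment over the other segments differed. The causes of the other changes were not tested.

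Differences that had not passed the test changed direction in some settings. With windows extended by 10 kb, nodules against inflamed livers differed by 620 bp at the Apoa1 cluster and by -1281 bp at Apob, and inflamed against WT livers by 1.2 peaks at Apob. Per Mb of all bp under peaks, nodules against inflamed livers differed by 9.11 bp per Mb at the Apoa1 cluster, and nodules against WT livers by -22.8 bp per Mb at the Apoe cluster. With the best 50% of each list, nodules against WT livers differed by -194 bp at the Apoe cluster and by 0.2 peaks at Apob, and nodules against inflamed livers by -240.4 bp in the smaller Apoe region. With joined peaks, inflamed against WT livers differed by -0.2 peaks at the Apoe cluster and nodules against inflamed livers by 0.2 peaks at the Apoa1 cluster. Without both animals, nodules against WT livers differed by 4258 bp in the widest Apoa1 cluster peak and by 169 bp in the smaller Apoe region. When an animal was left out, nodules against WT livers ranged from -5879 to 3935 bp in the widest Apoa1 cluster peak, from -1109 to 754 bp in the widest Apoe cluster peak and from -186 to 149.5 bp in the smaller Apoe region.

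When 4 animals sufficed and 1 exception was allowed, bins lost in inflamed against WT livers were 4 at the Apoa1 cluster and 1 at the Apoe cluster. By the same rule nodules against inflamed livers gained 1 and lost 1 at the Apoa1 cluster and gained 1 at the Apoe cluster, and against WT livers lost 3 at the Apoa1 cluster. With at least 1 bp of a bin, inflamed livers lost 1 bin at the Apoe cluster, and nodules gained 1 at Apob. Shares over all bins of the genome were not counted under these looser rules. Whether such counts are unusual was therefore not tested. No paired analysis was possible because each group holds different animals.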
